A study of Rattus norvegicus with 9 samples.

Results

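The genes described here are those for potassium channels and their subunits whose symbol begins with Kcn. They were taken from the gene count tables by symbol: 93 of the 18733 rows carry such a symbol, Kcnj10 was left out by name, and 15 rows held under 100 counts over the 9 libraries, which left 77 genes in 18 subfamilies, grouped by the letters after Kcn. No measured difference between groups entered this rule, though the members were chosen with earlier results of these data known. Kcnn4, however, met the minimum only through its counts in 1 group, as given below. Just inside the minimum lay Kcnq1 with 106 counts, Kcne5 with 110 and Kcnk5 with 117, and just outside it Kcnrg with 79, Kcnj13 with 64 and Kcnmb1 with 62. All 77 passed the filter on low counts that left 14840 genes for testing. The RNA came from the hippocampus of male rats, one library per animal. The 3 control rats had regular feeding. The 3 rats with post-stroke cognitive impairment (PSCI) had undergone middle cerebral artery occlusion (MCAO), a surgical model of ischaemic stroke, and then regular feeding for 2 weeks. The 3 rats of the third group had the same occlusion and impairment and received 14 days of transcutaneous auricular vagus nerve stimulation (taVNS), current applied through the skin of the ear to its vagal branch. Occluded rats entered the study when alternation rate and cognitive index were both under a limit stated as 20% of the control mean, and were divided at random between PSCI and taVNS. The labels give no strain, age or hemisphere and do not say whether controls had sham surgery or PSCI rats sham stimulation, so the PSCI comparison carries the surgery together with the impairment.

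Potassium channels let potassium leave the cell, which sets the resting potential and ends the action potential. The voltage-gated families (Kcna, Kcnb, Kcnc, Kcnd, Kcnh, Kcnq) open on depolarization, the silent subunits (Kcnf, Kcng, Kcns, Kcnv) form channels only together with Kcnb subunits, and Kcnab, Kcnip and Kcne encode auxiliary subunits. Kcnm, Kcnn and Kcnt channels open with calcium or sodium inside the cell, Kcnj channels rectify inward, and Kcnk channels carry leak current. In the hippocampus Kcnd channels with Kcnip subunits limit back-propagation of spikes into pyramidal dendrites, Kcnc channels allow fast spiking of interneurons, and Kcnq channels carry the M current that acetylcholine inhibits.

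The libraries held from 13747389 to 15415694 counts, so 3 counts correspond to 0.191 to 0.22 CPM (counts divided by the scaled library size). Levels below are CPM in replicates 1, 2 and 3 of a group unless RPKM, which is scaled for gene length, is named. Hippocampal markers were present in all libraries, with averages of 6.47 to 7.53 log2 CPM for the CA fields and 4.53 to 6.03 for dentate granule cells. Meningeal and fibroblast markers averaged 4.93 log2 CPM in PSCI replicate 2 and 5.24 in taVNS replicate 3, against 2.56 to 3.12 in the remaining libraries. Excitatory neuron markers were lowest in PSCI replicate 2, at 7.24 log2 CPM against 7.62 to 8.42 elsewhere. All 8 reactive astrocyte markers were called higher in PSCI against control, with summed levels of 671 to 1249 CPM in control, 4691 to 9366 in PSCI and 912 to 1455 in taVNS. No listed marker was at 0 in all libraries. The p-values set each difference against a spread between animals that was estimated from all 9 libraries together. In bulk tissue fewer cells of a type and less RNA per cell cannot be told apart.

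On the length-scaled RPKM scale the family spanned a wide range of levels. Kcnab2, a cytoplasmic subunit of Kcna channels, had the highest mean at 277 RPKM (125.07 to 395.03 over libraries), followed by Kcnip2, a calcium-binding subunit of Kcnd channels, at 102 RPKM (64.37 to 121.59). The lowest Kcnab2 library still lay above the highest Kcnip2 library. Kcnab1 had 44.6 RPKM and Kcnmb4, the neuronal subunit of large-conductance calcium-activated channels, 44.5 RPKM. From there the levels declined in small steps, with Kcnip3 at 39.3 RPKM, Kcnip4 at 35.1, Kcnd2 at 35, Kcnj3 at 31.3, Kcnc4 at 30.7, Kcna1 at 30.4 and Kcng1 at 29.9, and the ranges of neighbours in this order overlapped. In all, 32 members averaged at least 10 RPKM, 38 lay between 1 and 10, and 7 lay under 1 RPKM, the lowest being Kcnq1 at 0.193 RPKM. In other subfamilies the highest member was Kcne5 (2.44 RPKM), Kcnf1 (8.13), Kcnh3 (21.4), Kcnk1 (18.1), Kcnn2 (22.7), Kcns2 (9.60), Kcnt1 (10.6) or Kcnv1 (8.52).

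**Figure D1:**
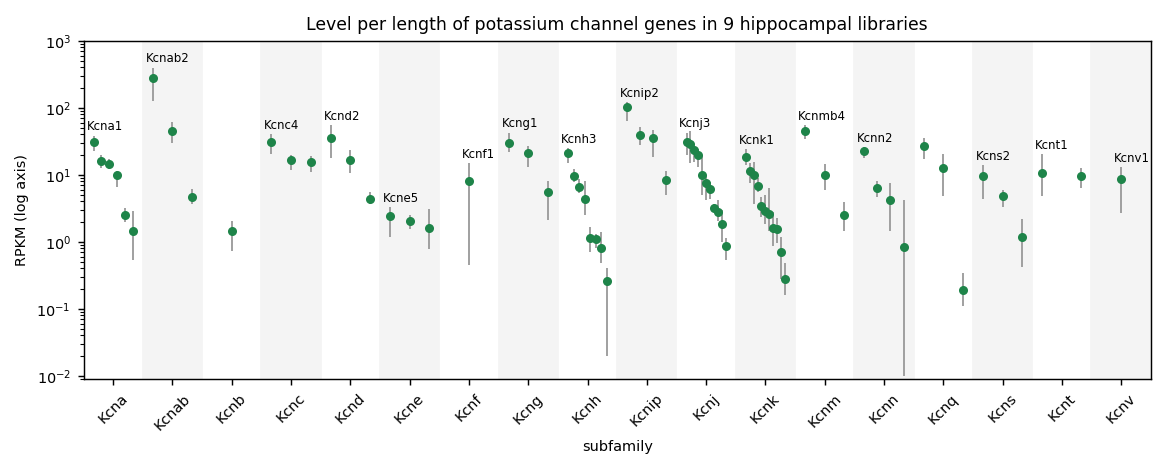
Mean RPKM (log axis) of 73 of the 77 potassium channel genes, with the range over 9 libraries, grouped by subfamily; a value of 0 is drawn at the floor of the axis. Kcnab2 lies highest at 277 RPKM and Kcnq1 lowest at 0.193 RPKM.

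Comparing PSCI with control asks which channel genes differ in the hippocampus of impaired rats after occlusion. Of the 77 genes, 5 passed the test (6.49%), against 9.85% of all genes tested. Kcne4 and Kcnn4 were higher, 2 genes or 2.6% against 7.71% of all genes called higher, and Kcnc2, Kcnk4 and Kcnt2 were lower, 3 genes or 3.9% against 2.14% called lower. Kcnn4 is a member through its PSCI counts alone, which bears on its calls in this comparison and in the next. Over the family the fold changes lay mostly below 0: 53 of 77 (68.8%, against 50% of all genes), with a median log2 fold change of -0.16 (quartiles -0.39 and 0.10) where the median of all genes was 0. For 14 genes (18.2%, against 11.3% of all genes) the 3 PSCI values all lay below the 3 control values, and for 4 (5.19%, against 16.2%) all above. At an unadjusted p under 0.05 there were 13 members lower (16.9%, against 9.11% of all genes) and 4 higher (5.19%, against 16.2%).

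Comparing taVNS with PSCI asks what differs between stimulated and unstimulated impaired rats. It shares the PSCI libraries with the first comparison, so an unusual PSCI value moves both in opposite directions, and the values of each are set side by side below. Called genes numbered 4 of 77 (5.19%, against 5.75% of all genes): Kcnc2 and Kcnk4 were higher in taVNS (2.6%, against 0.842% of all genes called higher) and Kcne4 and Kcnn4 lower (2.6%, against 4.91%). Fold changes were above 0 for 55 members (71.4%, against 49.7% of all genes), with a median log2 fold change of 0.18 (quartiles -0.02 and 0.34) against 0 over all genes. For 13 members (16.9%, against 10.6% of all genes) the 3 taVNS values all lay above the 3 PSCI values, and for 2 (2.6%, against 15.2%) all below. At an unadjusted p under 0.05 there were 10 members higher (13%, against 7% of all genes) and 2 lower (2.6%, against 14.1%).

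**Figure D2:**
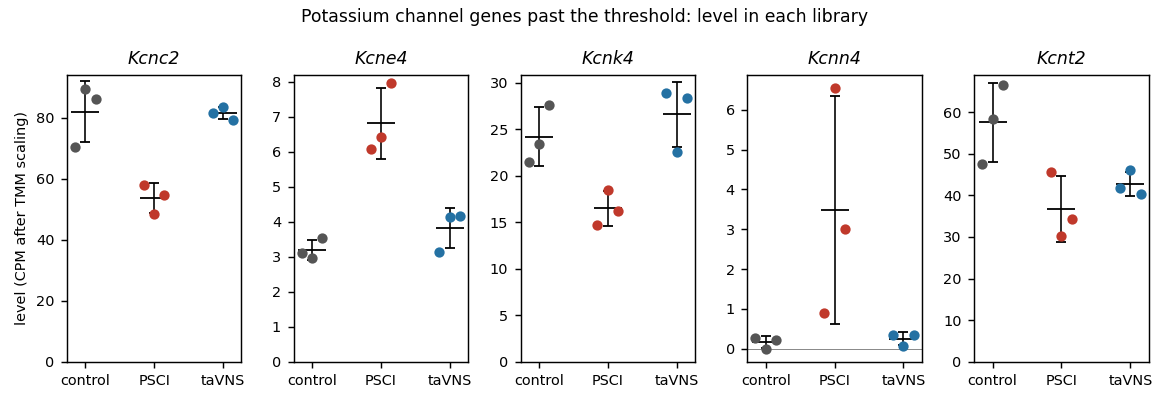
CPM of the 5 called genes in each of the 9 libraries (points) with the mean (horizontal line) and SD (error bar) of each group. Kcnc2 and Kcnk4 are lowest in the 3 PSCI libraries, Kcne4 and Kcnn4 highest, and the taVNS values of Kcnt2 lie between the lowest PSCI and the lowest control values.

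Kcnc2 encodes a voltage-gated subunit of the fast delayed rectifier found in fast-spiking interneurons. Its level was 70.5, 89.3 and 86.0 CPM in control, 58.0, 48.4 and 54.6 in PSCI, and 81.5, 83.5 and 79.4 in taVNS. The 3 PSCI values lay below all others, while control and taVNS values overlapped. The group means were 82.0 ± 10, 53.7 ± 4.89 and 81.5 ± 2.03 CPM (SD, n = 3), and Kcnc2 fell 1.53-fold in PSCI against control (log2 fold change -0.61, SE 0.108, adjusted p = 0.00966, edgeR quasi-likelihood test) and was 1.52-fold higher in taVNS than in PSCI (0.60, SE 0.108, adjusted p = 0.0157). Against control, taVNS differed by -0.01 (SE 0.107). Without control replicate 3 the Kcnc2 call in PSCI was lost (adjusted p = 0.051), and without PSCI replicate 3 or without taVNS replicate 1, 2 or 3 the taVNS call was lost (adjusted p from 0.0505 to 0.0783, log2 fold change 0.59 to 0.64). Markers of inhibitory interneurons showed no call in PSCI against control (0 of 10), with summed levels of 647 to 783 CPM in control, 505 to 700 in PSCI and 554 to 721 in taVNS. Of the 10, 8 had a fold change below 0 in PSCI against control, and 1 was called lower in taVNS against PSCI. That 1 was Npy, which ran opposite to Kcnc2. Npy differed by 1.16 (SE 0.416, adjusted p = 0.119, edgeR) in PSCI against control and by -1.81 (SE 0.427, adjusted p = 0.0417) in taVNS against PSCI. Among the 10 markers Pvalb, the marker of fast-spiking interneurons, had 45.2, 29.5 and 28.6 CPM in control, 25.9, 14.4 and 20.2 in PSCI and 30.5, 23.7 and 27.9 in taVNS (PSCI against control -0.77, adjusted p = 0.0764, edgeR). The part of interneuron content in the Kcnc2 difference was not tested.

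Kcnk4 encodes a mechanically gated, lipid-sensitive leak channel of neurons. It measured 21.5, 23.4 and 27.6 CPM in control, 14.7, 18.5 and 16.2 in PSCI and 28.9, 22.6 and 28.4 in taVNS. Again the PSCI values lay below all of both other groups. The log2 fold change of Kcnk4 was -0.55 (SE 0.147, adjusted p = 0.0465, edgeR) in PSCI against control, a 1.47-fold lower level, and 0.69 (SE 0.147, adjusted p = 0.029) in taVNS against PSCI, a 1.62-fold higher one. The first call was just inside the threshold and was lost in 13 of 19 alternative settings, with adjusted p up to 0.131, and the second in 10 of 19. Among single libraries, leaving out any control library, PSCI replicate 1 or 3, or taVNS replicate 1 or 3 ended the first call (-0.63 to -0.47), and leaving out control replicate 2, PSCI replicate 3, or taVNS replicate 1 or 3 the second (0.66 to 0.69). Kcnk4 is also one of 5 members whose estimated counts are not whole in every library, with Kcnd2, Kcng4, Kcnh1 and Kcnj9. The GRCr8 reference table lists a locus overlapping Kcnk4, but none overlapping Kcng4 or Kcnh1. Why these counts are not whole was not tested.

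Kcnt2 encodes a sodium-activated potassium channel of neurons. Its 3 control libraries held 47.5, 58.4 and 66.6 CPM, the PSCI libraries 45.5, 30.2 and 34.4, and the taVNS libraries 41.8, 46.0 and 40.2. PSCI and taVNS values overlapped, and both groups lay below control in every library. The log2 fold change of Kcnt2 was -0.65 (SE 0.17, adjusted p = 0.0444, edgeR) in PSCI against control, 0.22 (SE 0.17, adjusted p = 0.512) in taVNS against PSCI and -0.43 (SE 0.17, unadjusted p = 0.0315, adjusted p = 1) in taVNS against control. The PSCI call was lost in 13 of 19 settings, among them without control replicate 2 or 3, PSCI replicate 2 or 3, or taVNS replicate 1, 2 or 3 (adjusted p 0.0645 to 0.168). A pseudogene overlaps Kcnt2 in the reference table.

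Kcne4 encodes a single-pass auxiliary subunit that inhibits some Kcna and Kcnq channels. It had 3.11, 2.97 and 3.53 CPM in control, 6.07, 6.44 and 7.96 in PSCI and 3.15, 4.13 and 4.17 in taVNS. All PSCI values lay above all others, and control and taVNS overlapped. Kcne4 was 2.13-fold higher in PSCI than in control (log2 fold change 1.09, SE 0.203, adjusted p = 0.0117, edgeR) and 1.79-fold lower in taVNS than in PSCI (-0.84, SE 0.20, adjusted p = 0.0438), with 0.25 (SE 0.205) in taVNS against control. The first call was lost only without control replicate 2 (adjusted p = 0.0527), the second in 16 of 19 settings, among them without any 1 of the libraries other than PSCI replicate 1. In the deposited RPKM the ratio of PSCI to control means of Kcne4 was larger than in CPM (log2 1.40 against 1.09).

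Kcnn4 encodes the intermediate-conductance calcium-activated channel known from microglia, T cells and red blood cells. It was near the detection floor outside PSCI: 4, 0 and 3 counts in the control libraries, 13, 103 and 46 in PSCI and 5, 1 and 5 in taVNS. In CPM these are 0.276, 0 and 0.22 in control, 0.886, 6.56 and 3 in PSCI and 0.35, 0.0699 and 0.342 in taVNS. Every PSCI value was above every other, but the PSCI libraries differed among themselves by more than the other groups did. The fitted log2 fold change of Kcnn4 was 4.33 (SE 0.937, adjusted p = 0.0213, edgeR) in PSCI against control and -3.73 (SE 0.879, adjusted p = 0.0417) in taVNS against PSCI. Its size depends on the libraries and on the pseudocount: it was 3.49 (adjusted p = 0.0392) without PSCI replicate 2, 4.90 (adjusted p = 0.0602) without control replicate 1, 3.76 (adjusted p = 0.0712) without control replicate 2, 4.53 (adjusted p = 0.0801) without control replicate 3, 4.42 (adjusted p = 0.0507) without PSCI replicate 3 and 1.38 (adjusted p = 0.0457) with limma on log2(RPKM + 1). The Kcnn4 call in PSCI against control was lost in 7 of 19 settings, among them limma-voom, the 2 groups alone and a replicate block. In taVNS against PSCI, the Kcnn4 call held without PSCI replicate 1 (-4.19, adjusted p = 0.00701) and was lost without any other 1 library (-3.98 to -2.89, adjusted p 0.0522 to 0.141). That second call was lost in 15 of 19 settings, among them limma-voom and each limma fit of RPKM.

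Most microglial and macrophage markers moved with Kcnn4 and Kcne4. Of 12 such markers, 8 were called higher in PSCI against control and none lower, and 5 were called lower and 1 higher in taVNS against PSCI, with summed levels of 299 to 382 CPM in control, 587 to 916 in PSCI and 400 to 476 in taVNS. The exception was Tmem119, a marker of resident microglia, at -0.56 (SE 0.192, adjusted p = 0.104) in PSCI against control and 0.95 (SE 0.192, adjusted p = 0.0252, edgeR) in taVNS against PSCI. Reactive astrocyte markers moved with the 2 channel genes as well. All 8 were called higher in PSCI against control (median 3.8) and all 8 lower in taVNS against PSCI (median -3.34). Of 8 listed T cell markers 4 were tested and 1 was higher, with summed levels of 4.25 to 10.9 CPM in control, 13.2 to 24.8 in PSCI and 7.65 to 18.0 in taVNS, and Cd8a and Cd2 were at 0 in the control libraries. Of 8 pericyte and smooth muscle markers 3 were higher, with summed levels of 76.3 to 109, 197 to 246 and 97.5 to 144 CPM. Tagln was the largest part of the PSCI sums, with means of 8.02 CPM in control, 120 in PSCI and 9.64 in taVNS. In taVNS against PSCI only 1 of the 8 was called lower, Tagln. Rgs5 (-0.29, SE 0.426) and Vtn (-0.13, SE 0.26) lay below 0 in PSCI against control, and neither was called. The part of these cells in the Kcnn4 and Kcne4 differences was not tested. Other channel genes known from microglia and vessels did not pass. Kcnk13, the leak channel of resting microglia, had 3.66, 3.75 and 4.48 CPM in control, 3.61, 7.46 and 13.6 in PSCI and 4.76, 3.36 and 6.49 in taVNS (PSCI against control 1.05, SE 0.434, adjusted p = 0.168, edgeR). Its PSCI replicate 1 lay below every control library, and without it the difference passed (1.40, adjusted p = 0.0226). Kcnj8, a pore subunit of ATP-sensitive channels in pericytes, had 1.79, 3.47 and 2.06 CPM in control, 4.23, 4.72 and 3.13 in PSCI and 2.24, 3.57 and 2.60 in taVNS (0.72, SE 0.318, adjusted p = 0.196), and Kcna3, a voltage-gated channel of lymphocytes and microglia, differed by 0.20 (SE 0.244, adjusted p = 0.66).

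Of the 5 called genes 4 had an entry in the RefSeq promoter table (assembly GRCr8), and the 250 bases before the listed start are shown to let the upstream regions be compared. Capitals mark matches to a GC box (GGGCGG) or an E-box (CACGTG) on either strand. Kcnc2, at chr7:49587364-49587613 on the plus strand, holds no match to any of the 6 motifs searched; Kcne4 is at chr9:87695798-87696047, plus strand, Kcnk4 at chr1:213555862-213556111, minus strand, and Kcnt2 at chr13:54215057-54215306, plus strand.
Kcnc2: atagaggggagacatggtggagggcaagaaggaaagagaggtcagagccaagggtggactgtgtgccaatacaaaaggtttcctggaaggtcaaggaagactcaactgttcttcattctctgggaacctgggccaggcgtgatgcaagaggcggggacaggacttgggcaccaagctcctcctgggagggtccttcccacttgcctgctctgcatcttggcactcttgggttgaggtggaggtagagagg
Kcne4: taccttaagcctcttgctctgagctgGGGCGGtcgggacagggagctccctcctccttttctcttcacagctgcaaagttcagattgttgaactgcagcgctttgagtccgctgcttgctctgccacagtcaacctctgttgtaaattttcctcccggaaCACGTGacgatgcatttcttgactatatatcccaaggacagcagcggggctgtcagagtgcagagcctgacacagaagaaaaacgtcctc
Kcnk4: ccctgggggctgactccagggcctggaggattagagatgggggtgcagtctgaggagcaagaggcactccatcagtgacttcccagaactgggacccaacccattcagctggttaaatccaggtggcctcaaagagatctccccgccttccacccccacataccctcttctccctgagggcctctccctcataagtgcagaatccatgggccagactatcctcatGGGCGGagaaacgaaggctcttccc
Kcnt2: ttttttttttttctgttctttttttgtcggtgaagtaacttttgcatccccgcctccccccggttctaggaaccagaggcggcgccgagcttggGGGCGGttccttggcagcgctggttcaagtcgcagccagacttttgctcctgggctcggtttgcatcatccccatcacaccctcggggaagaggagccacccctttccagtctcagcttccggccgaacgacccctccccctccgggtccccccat

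Over the family, 50 of 77 members matched an entry. Their median GC content was 64.4%, against 51.2% over all 33469 windows of the table. A GC box stood in 26 of 50 windows (52%, against 30.5% of all windows), an E-box in 2 (4%, against 5.59%), an AP-1 site (TGANTCA) in 1 (2%, against 6.34%), and an EGR site (GCGNGGGCG, whose last letters can overlap a GC box) in 4 (8%, against 4.29%). The TATA box (TATAAA), present in 12.9% of all windows, and the cAMP response element (TGACGTCA), present in 1.59%, matched none of the 50. The windows of the whole table are not limited to genes tested here and were not matched to the members in GC content. The shares therefore do not set channel genes apart from other expressed genes. A match is a run of letters in the window and shows no binding.

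**Figure D3:**
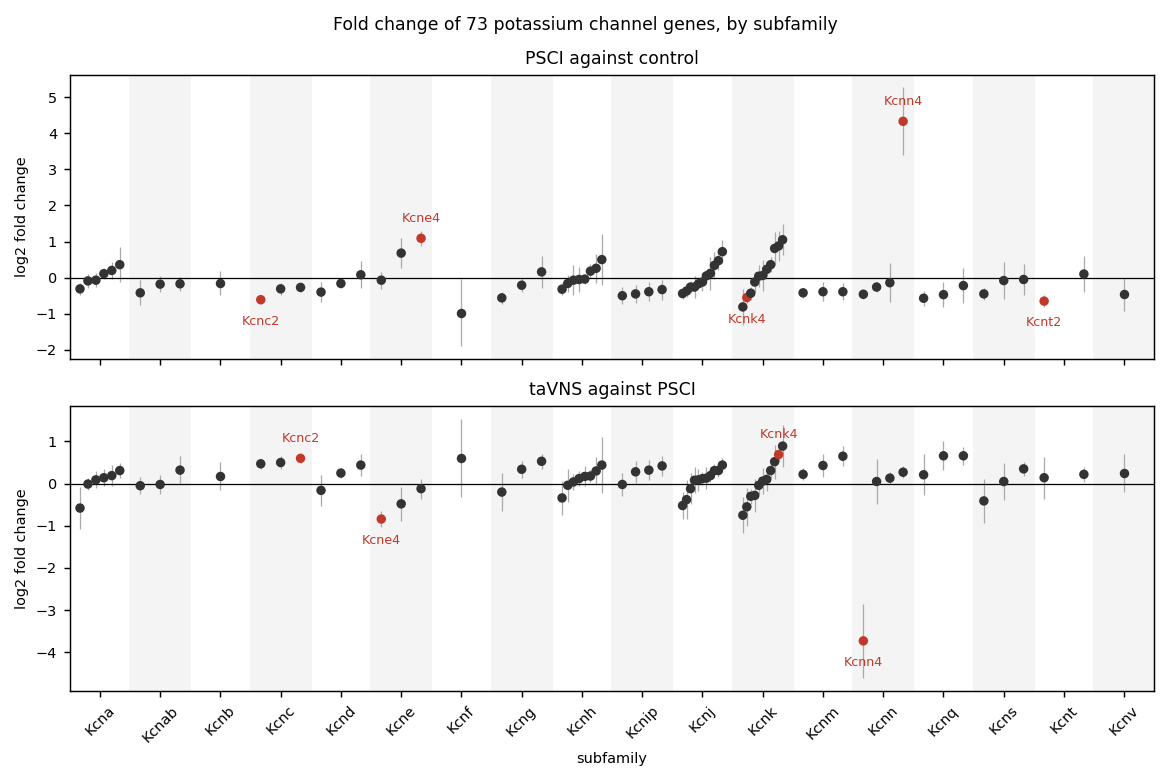
Log2 fold change of 73 of the 77 potassium channel genes, each with its SE (line), by subfamily, for PSCI against control (top) and taVNS against PSCI (bottom); red points are called genes. Kcnn4 lies farthest from 0 in both plots, at 4.33 and -3.73, and both use the same PSCI libraries.

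Among the voltage-gated subfamilies, the 4 Kcnc genes had a median of -0.29 in PSCI against control and 0.48 in taVNS against PSCI, and Kcnc2 alone passed in either comparison. Kcnc1, another fast delayed rectifier subunit, had 53.2, 60.1 and 59.4 CPM in control, 55.3, 46.1 and 41.4 in PSCI and 60.1, 69.2 and 68.5 in taVNS. Its taVNS values all lay above the PSCI values, and the difference of 0.47 (SE 0.12) missed the threshold (adjusted p = 0.0541, edgeR), passing with DESeq2 (0.49, adjusted p = 0.009) and without PSCI replicate 1 (0.59, adjusted p = 0.0108); without that library Kcnc1 also passed in PSCI against control (-0.40, adjusted p = 0.0437). Kcnc4, an inactivating member, differed by 0.50 (SE 0.158, adjusted p = 0.108) in taVNS against PSCI with all values separated. Kcnc4 passed there with DESeq2 (0.52, adjusted p = 0.0477) and without PSCI replicate 1 (0.69, adjusted p = 0.0112), and in PSCI against control without that library (-0.50, adjusted p = 0.0342).

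The 5 Kcnq genes had a median of -0.47 in PSCI against control and 0.66 in taVNS against PSCI, and none passed. Kcnq5, which forms M channels in hippocampal neurons, had 145, 239 and 256 CPM in control, 146, 122 and 162 in PSCI and 191, 241 and 247 in taVNS (-0.57, SE 0.212, adjusted p = 0.129, and 0.66, SE 0.212, adjusted p = 0.113). Control replicate 1 was as low as PSCI for Kcnq5, and without it the PSCI difference was -0.79 (adjusted p = 0.0298) and that of taVNS against PSCI 0.66 (adjusted p = 0.0418). DESeq2 also called Kcnq5 in taVNS against PSCI (0.68, adjusted p = 0.0293).

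The Kcna, Kcnd and Kcnh subfamilies stayed nearer 0. The 6 Kcna genes had medians of 0.02 in PSCI against control and 0.12 in taVNS against PSCI, the 3 Kcnd genes -0.16 and 0.25 and the 8 Kcnh genes -0.04 and 0.14, with no gene called. Kcna1, an axonal channel gene, had 251, 246 and 236 CPM in control, 272, 171 and 256 in PSCI and 204, 319 and 249 in taVNS, with its lowest value in PSCI replicate 2. Kcnd2, the main dendritic A-type channel gene, was also lowest in PSCI replicate 2, at 144, 134 and 120, then 206, 62.7 and 153, then 116, 171 and 91.5 CPM (PSCI against control 0.08, SE 0.374); the reference table lists a Kcnd2-like locus overlapping it. Kcnh3 differed by -0.32 (SE 0.168, adjusted p = 0.283) and passed without PSCI replicate 1 (-0.52, adjusted p = 0.0347).

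Auxiliary subunits did not follow one pattern. The 4 Kcnip genes had medians of -0.42 in PSCI against control and 0.30 in taVNS against PSCI, and none was called. Kcnip2 had 194, 236 and 198 CPM in control, 225, 118 and 118 in PSCI and 182, 229 and 204 in taVNS. PSCI replicate 1 sat among the controls and replicates 2 and 3 well under them, so that the difference of -0.45 (adjusted p = 0.285) became -0.83 (adjusted p = 0.0043, edgeR) without PSCI replicate 1, and that of taVNS against PSCI 0.80 (adjusted p = 0.00627). Kcnip4 had 77.1, 63.3 and 64.8 CPM in control and 59.0, 30.1 and 55.5 in PSCI, every PSCI value below every control value (-0.50, SE 0.23, adjusted p = 0.21). Kcnab2 had 1031, 945 and 745 CPM in control, 937, 332 and 768 in PSCI and 729, 1129 and 691 in taVNS, where PSCI replicate 2 was far below every other library (-0.42, SE 0.346, adjusted p = 0.503). In the Kcne subfamily Kcne5 had 0.483, 0.779 and 0.735 CPM in control, 1.09, 1.02 and 1.11 in PSCI and 0.771, 1.12 and 0.41 in taVNS (0.68, SE 0.405, adjusted p = 0.338), and Kcne2 differed by -0.07 (SE 0.235).

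No silent subunit was called. In PSCI against control the 3 Kcng genes had a median of -0.21 (-0.56 to 0.16) and the 3 Kcns genes -0.08 (-0.45 to -0.05). Kcnf1 and Kcnv1, each the 1 gene of its subfamily, differed by -0.97 and -0.46. In taVNS against PSCI the Kcng and Kcns medians were 0.34 and 0.05. The lowest of the Kcng genes in PSCI against control was Kcng2, with 61.1, 63.0 and 57.6 CPM in control, 50.7, 30.0 and 42.3 in PSCI and 51.3, 60.0 and 65.9 in taVNS. PSCI values of Kcng2 lay below those of both other groups, at -0.56 (SE 0.176, adjusted p = 0.0778) against control and with 0.53 (SE 0.176, adjusted p = 0.126) in taVNS against PSCI. Kcng2 passed in PSCI against control with DESeq2 (-0.58, adjusted p = 0.0347) and without PSCI replicate 1 (-0.75, adjusted p = 0.0173), and without that library also in taVNS against PSCI (0.71, adjusted p = 0.0267). Kcns3, known from fast-spiking cortical interneurons, had 11.5, 9.42 and 12.4 CPM in control, 6.75, 8.35 and 9.27 in PSCI and 10.4, 9.93 and 10.7 in taVNS, with PSCI below both other groups (-0.45, SE 0.165, adjusted p = 0.124, and 0.35, SE 0.165, adjusted p = 0.261).

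Of the channels opened by ions inside the cell, the 3 Kcnm genes had medians of -0.39 in PSCI against control and 0.43 in taVNS against PSCI, with none called. Kcnmb4 had 41.8, 34.8 and 36.7 CPM in control, 25.6, 25.9 and 33.2 in PSCI and 35, 35.6 and 28.3 in taVNS; PSCI lay below control throughout and overlapped taVNS (-0.42, SE 0.141, adjusted p = 0.0985, and 0.22, SE 0.141, adjusted p = 0.405). Kcnma1, the pore of the large-conductance channel, differed by -0.39 (SE 0.264, adjusted p = 0.402). The Kcnn genes other than Kcnn4 are small-conductance channels of the afterhyperpolarization. Kcnn1 had 14.6, 17.9 and 15.1 CPM in control, 12.4, 11.3 and 10.8 in PSCI and 12.4, 13.5 and 15.9 in taVNS (-0.46, SE 0.142, adjusted p = 0.074), passing with DESeq2 (-0.48, adjusted p = 0.0384), and Kcnn2 differed by -0.26 (SE 0.135, adjusted p = 0.269).

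The 11 Kcnj genes had medians of -0.12 and 0.12 in the PSCI and taVNS comparisons, and none was called. Among the G-protein-gated subunits Kcnj9 had 46.7, 44.8 and 42.9 CPM in control, 37.5, 25.5 and 35.8 in PSCI and 45.9, 50.9 and 37.3 in taVNS, with PSCI below control throughout (-0.44, SE 0.162, adjusted p = 0.125), though Kcnj9 overlaps Igsf8 in the reference table. Its partners Kcnj3 (-0.12, SE 0.255) and Kcnj6 (0.34, SE 0.365) lay within the spread of the libraries. Kcnj4, a strong inward rectifier, differed by -0.37 (SE 0.164, adjusted p = 0.191). The 11 Kcnk genes spread on both sides of 0, from -0.81 (Kcnk9) to 1.05 (Kcnk13) in PSCI against control, with a median of 0.06 there and also in taVNS against PSCI. Kcnk1, the most abundant of them per length, had 45.3, 31.7 and 41.4 CPM in control, 49.3, 34.9 and 54.8 in PSCI and 39.7, 36.9 and 36.5 in taVNS (0.23, SE 0.179, adjusted p = 0.472), and its groups overlapped.

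Comparing taVNS with control asks whether stimulated rats differ from control rats. None of the 77 genes, and 0% of all genes tested, passed with edgeR, and DESeq2 also called 0 members. At an unadjusted p under 0.05 there was 1 member (1.3%, against 3.75% of all genes), Kcnt2. The median log2 fold change of the family was 0.01, with 41 members above 0 (53.2%, against 50.6% of all genes) and a range from -0.49 (Kcns1) to 0.94 (Kcnh8, under 1.5 CPM in every library). Only Kcnt2 lay below control in every taVNS library (1.3%, against 5.4% of all genes) and only Kcnj5, a G-protein-gated subunit, above in every one (1.3%, against 5.74%), at 2.28, 1.70 and 2.20 CPM in control and 2.80, 3.64 and 2.94 in taVNS (0.60, SE 0.27, adjusted p = 1). A difference that misses the threshold with 3 rats per group does not show equal levels.

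**Figure D4:**
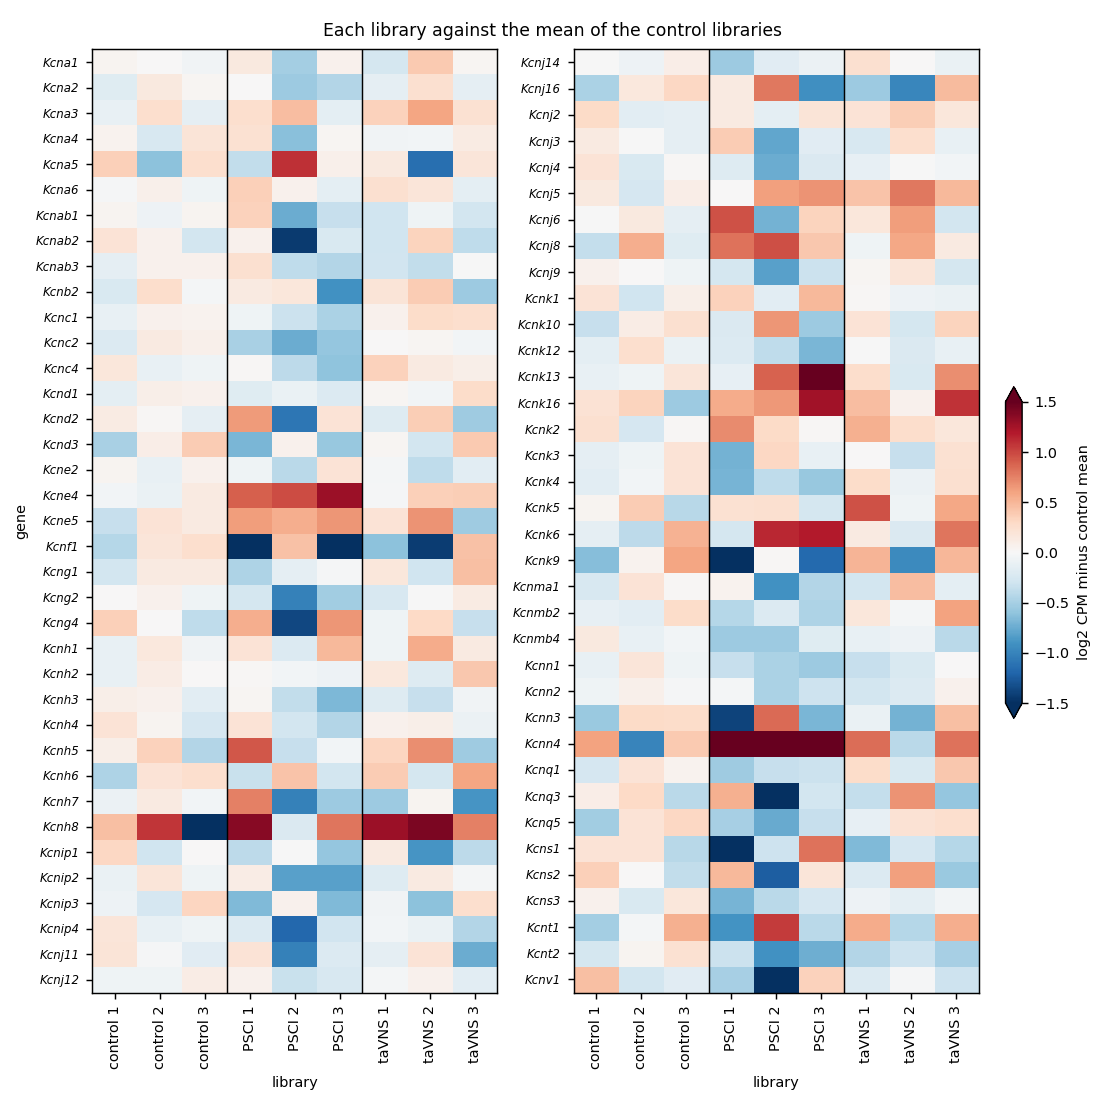
Log2 difference of each library from the control mean, for 73 of the 77 potassium channel genes (rows, by subfamily) and the 9 libraries (columns); blue is lower and red higher than the control mean, and colours end at 1.5 in either direction. Blue prevails in PSCI replicates 2 and 3, whose medians over the 77 genes are -0.33 and -0.24, and not in PSCI replicate 1, whose median is 0.

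The lower levels in PSCI came unequally from its 3 rats. The median deviation of the 77 genes from the control mean was 0 in PSCI replicate 1, -0.33 in replicate 2 and -0.24 in replicate 3, against -0.04 to 0.06 in the control and -0.01 to 0.01 in the taVNS libraries. PSCI replicate 2 held the lowest of the 9 values for 30 genes (39%, against 19.8% of all genes). PSCI replicates 1 and 3 did so for 14 each (18.2%, against 11.2% and 14.2% of all genes), and taVNS replicate 1 for none (against 5.52%). The family median in PSCI against control was -0.29 without PSCI replicate 1 and -0.17 without PSCI replicate 2. In taVNS against PSCI it was 0.27 and 0.11. PSCI replicate 2 is the library with low excitatory and high meningeal markers. Dentate granule cell markers averaged 6.03, 5.58 and 5.48 log2 CPM in control, 5.69, 4.53 and 5.01 in PSCI and 5.77, 5.83 and 5.43 in taVNS, with 0 of 7 called. Other neuronal lists were not low in PSCI replicate 3. CA field markers averaged 7.23, 6.47 and 7.42 in PSCI, against 7.12 to 7.32 in control. Excitatory neuron markers averaged 8.42, 7.24 and 8.02, against 7.98 to 8.20. Interneuron markers averaged 5.28, 5.56 and 5.59, against 5.54 to 5.76. The part of these cells in the channel values was not tested.

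Several abundant channel genes varied widely between rats of one group. Among the 51 members averaging at least 4 RPKM, 9 had a within-group SD of at least 0.65 on the log2 scale (17.6%, against 2.7% of the 10684 genes at that level), and the median within-group SD was 0.317 for the 77 members against 0.202 for all genes. These limits were set after the values were seen. Kcnf1, a silent subunit, varied most (SD 1.51), at 18.5, 28.2 and 29.7 CPM in control, 1.09, 33.8 and 4.11 in PSCI and 16.3, 9.23 and 33.7 in taVNS. PSCI replicate 2 and taVNS replicate 3 were the highest libraries for Kcnf1 and PSCI replicate 1 the lowest. Its difference between PSCI and control was -0.97 (SE 0.929, adjusted p = 0.574) and became -3.27 (adjusted p = 0.018, edgeR) without PSCI replicate 2, and that between taVNS and PSCI went from 0.60 to 2.92 (adjusted p = 0.038).

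Kcnn3, a small-conductance calcium-activated channel, and Kcnt1, a sodium-activated channel, ordered the PSCI rats as Kcnf1 did. Kcnn3 had 20.7, 37.5 and 37.2 CPM in control, 11.6, 55.6 and 19.1 in PSCI and 28.6, 18.7 and 42.0 in taVNS. Kcnt1 had 27.5, 38.4 and 56.6, then 20.9, 81.0 and 29.3, then 57.7, 29.0 and 57.5 CPM. The acid-sensitive leak channel Kcnk9 (38.2, 61.8 and 89.7, then 20.9, 60.5 and 26.5, then 85.0, 30.5 and 84.4 CPM) was likewise low in PSCI replicates 1 and 3 and in taVNS replicate 2. Kcnq3, an M channel gene, ran the other way, with 78.4, 90.3 and 55.2 CPM in control, 106, 25.6 and 60.8 in PSCI and 56.8, 116 and 49.0 in taVNS. Kcns2 (59.2, 46.2 and 35.7, then 64.9, 19.4 and 52.3, then 39.8, 70.4 and 31.3 CPM) ordered the PSCI and taVNS rats as Kcnq3 did. Kcng4 and Kcnv1 were also lowest in PSCI replicate 2, at 7.33 and 9.24 CPM against 14.6 to 30.0 and 25.1 to 48.7 in the other libraries. Kcnj16, an inward rectifier of astrocytes, was highest in PSCI replicate 2 (51.5 CPM) and lowest in taVNS replicate 2 (15 CPM).

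**Figure D5:**
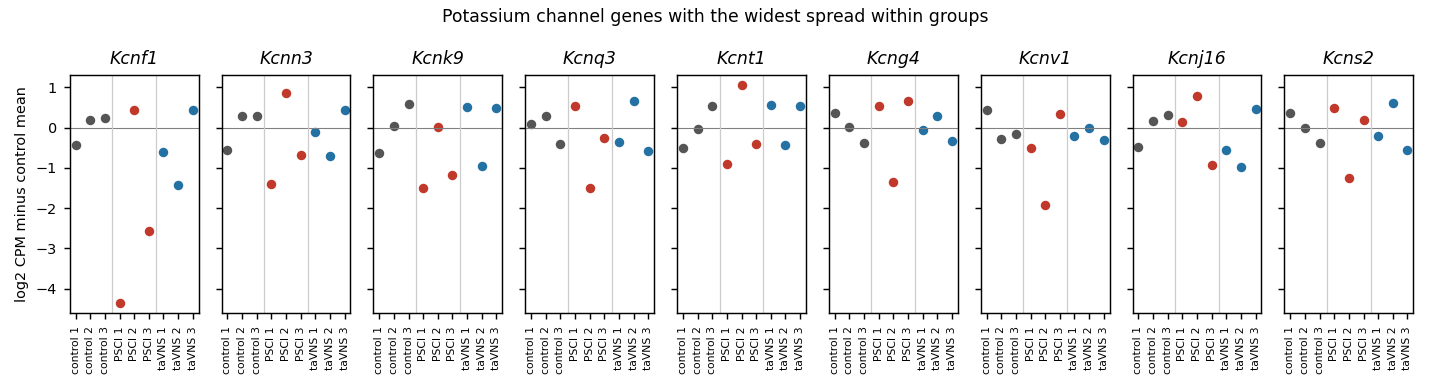
Log2 CPM minus the control mean for the 9 potassium channel genes with the widest spread within groups, in each of the 9 libraries (points, coloured by group). Kcnf1, Kcnn3 and Kcnt1 peak in PSCI replicate 2, where Kcnq3, Kcng4, Kcnv1 and Kcns2 have their lowest value.

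Proteins that assemble with potassium channels but are not named Kcn were taken from a list, of which 23 genes were tested. In PSCI against control 3 were called lower and 1 higher, with a median of -0.13, where 2.14% of all genes were called lower and 7.71% higher. In taVNS against PSCI 2 were higher and none lower, with a median of 0.20, where 0.842% of all genes were called higher and 4.91% lower. Cntnap2, which clusters Kcna channels beside the node of Ranvier, had 154, 160 and 176 CPM in control, 116, 97.0 and 89.4 in PSCI and 155, 171 and 142 in taVNS. Its PSCI values lay below all others, a 1.62-fold fall (-0.69, SE 0.118, adjusted p = 0.0082, edgeR) and a 1.55-fold higher level in taVNS than in PSCI (0.63, SE 0.118, adjusted p = 0.018). The first Cntnap2 call held in all 19 alternative settings, and the second was lost in 5, among them without PSCI replicate 3 (0.55), taVNS replicate 1 (0.66) or taVNS replicate 2 (0.56), with adjusted p up to 0.0822. Amigo1, a membrane partner of Kcnb channels, had 133, 127 and 126 CPM in control, 107, 83.6 and 89.8 in PSCI and 128, 132 and 123 in taVNS (-0.46, SE 0.0997, adjusted p = 0.0215, and 0.45, SE 0.0996, adjusted p = 0.0348). These Amigo1 calls were lost in 8 of 19 settings (adjusted p up to 0.0794) and 11 of 19 (up to 0.146): without any control library, PSCI replicate 2 or 3, or taVNS replicate 1 in both comparisons, and without taVNS replicate 2 or 3 in the second. Akap5, the anchoring protein that brings kinases to Kcnq channels, fell by 0.35 on the log2 scale in PSCI (SE 0.0947, adjusted p = 0.0486), a call lost in 17 of 19 settings, among them without any single library other than PSCI replicate 1 (-0.40 to -0.26, adjusted p up to 0.179). Lrrc55, a gamma subunit of the large-conductance channel, rose by 0.83 (SE 0.221, adjusted p = 0.046), and this was lost in 10 of 19 settings, among them without any control library, PSCI replicate 1 or 3, or taVNS replicate 1 or 3 (0.64 to 0.98, adjusted p up to 0.154).

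Other ion channel lists held no call in any comparison. The 5 HCN channel genes had medians of -0.09 in PSCI against control and 0.17 in taVNS against PSCI. The 12 voltage-gated sodium channel genes had -0.15 and 0.23, and the 18 voltage-gated calcium channel genes -0.12 and 0.21. The 16 tested potassium pumps and cotransporters had -0.06 and 0.01.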

How the data were processed

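Hippocampal poly(A) RNA of 9 rats in 3 groups of 3 was sequenced with a strand-marking protocol, per the labels' protocols, which speak of mice although every label gives rat. The authors deposited an expected count (a model-based estimate of reads per gene) and an RPKM value (scaled for gene length and depth, 2 decimals) for 18733 genes per library. HISAT2 2.0.4, RSEM 1.2.8 and mRatBN7.2 are named in the submitters' processing notes; the annotation and filters are not given in the sources used here. No genome of that build was used, so gene names and gene overlaps come from a GRCr8 table.

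Estimated counts were rounded, filtered with filterByExpr (14840 genes), scaled with TMM and fitted over all 9 libraries with the quasi-likelihood test of edgeR 4.0.16 in R 4.3.3 with 6 residual degrees of freedom. Calls were made at an adjusted p (Benjamini-Hochberg, over all genes tested) under 0.05. Log2 levels used a prior count of 2. Alternatives used limma 3.58.1, DESeq2 1.42.0, other scaling and filters, log2(RPKM + 0.1) and log2(RPKM + 1), a replicate block and left-out libraries. The labels give no batch. Floors of 3 counts cover counting error only. No 2 libraries of one group agreed within sampling noise. The fit was tested on simulated data.

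Values of some members are not reported here one by one, though all 77 enter the counts and medians. Named genes are every called member, the member with the highest RPKM in each subfamily, and members extreme in level, fold, library spread or the gap between counts and RPKM. Members and gene lists were chosen with earlier results of these data known.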

Additional observations from a re-analysis of the deposited data

How the results depend on the processing

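Tests with 3 animals a group left few calls, and their number depended on single libraries. Leaving out 1 library, the count of channel genes called ran from 0 to 3 for higher and 0 to 9 for lower in PSCI against control, and from 0 to 7 for higher and 0 to 2 for lower in taVNS against PSCI. The most calls came without PSCI replicate 1 (3 higher and 9 lower, then 7 higher and 2 lower). Over all genes tested, that setting called 15% in PSCI against control and 11.3% in taVNS against PSCI. With all libraries these shares were 9.85% and 5.75%. The fewest came without control replicate 2 (0 higher and 1 lower in PSCI against control) or control replicate 3 (1 higher and 0 lower), and in taVNS against PSCI without PSCI replicate 3, taVNS replicate 1 or taVNS replicate 3 (0 in either direction). Shares over all genes in these settings, in the same order, were 4.21% and 3.63%, then 2.5%, 1.14% and 2.08%. The 2 lower calls in taVNS against PSCI held without PSCI replicate 1 and were 0 without any other single library. In PSCI against control, 1 higher gene remained with limma-voom, with the 2 groups fitted alone or with a replicate block, and 1 lower gene with each limma fit of RPKM, with the 2 groups alone or with a replicate block, while DESeq2 called 5 lower. In taVNS against PSCI, DESeq2 called 5 higher, each limma fit of RPKM and the fit of 2 groups 1 higher, and 0 were higher with PSCI replicate 2 and taVNS replicate 3 left out together. Lower calls there were 1 with no filter on low counts and 0 with limma-voom, each limma fit of RPKM, 2 groups alone, a replicate block, or both of those libraries left out. Over all genes, DESeq2 called 13.8% in PSCI against control and 9.88% in taVNS against PSCI. The shares were 7.8% and 3.23% with limma-voom, 5.5% and 1.7% with the 2 groups alone, and 7.3% and 3.49% with the block. The limma fits of RPKM called 6.53% to 8.81% and 3.09% to 4.49%. In taVNS against PSCI the share was 4.51% with no filter and 2.43% with both libraries left out. The cause of these differences between settings was not tested. The family median lay between -0.29 and -0.14 in PSCI against control over the 19 alternatives, and between 0.11 and 0.27 in taVNS against PSCI, where both ends come from leaving out PSCI replicate 2 or PSCI replicate 1. Same-numbered libraries did not deviate together (9 pairs, r from -0.47 to 0.26, 3 of 9 libraries closest to their own number), so the replicate block, which left 1 higher and 1 lower call in PSCI against control and 2 higher and 0 lower in taVNS against PSCI, has no support as a pairing. With the block Kcnc4 passed in taVNS against PSCI (0.51, adjusted p = 0.0425, edgeR). In taVNS against control no setting called a member. No direction reversed among called genes. Deposited RPKM and counts differed by over 0.25 on the log2 scale for 3 members in PSCI against control (Kcne4, Kcnk10 and Kcnb2), for none in taVNS against PSCI and for 1 in taVNS against control (Kcnq1).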
